A study of Mus musculus with 6 samples.

Results

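The genes described here encode cytochrome P450 enzymes of families 1 to 3, the microsomal enzymes that oxidise drugs, toxicants, steroids and fatty acids in the liver. They were chosen by name: probe sets annotated to exactly 1 gene symbol of these families, leaving out 1 gene that is not reported here, with each gene represented by its probe set of highest mean over all arrays. This gave 36 genes from 43 probe sets, of 17097 genes on the array. Of these, 29 were above the limit for dim signal (log2 2.66, the 40th percentile of probe set means) and were tested, as were 12466 genes in all. The other 7, Cyp1a1, Cyp2b13, Cyp2b19, Cyp2d34, Cyp2j13, Cyp2u1 and Cyp3a16, lay under it and are given as values only. Cyp1a1, at a mean of 2.64, lay just under the limit and Cyp1b1, at 2.88, just over it.

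Livers came from C57BL/6 wild-type mice and from Nrg4 knockout mice, which lack the secreted growth factor neuregulin 4. From the age of 3 months, both genotypes received high-fat food during 8 weeks and were fed at harvest; no group on another diet is included. Each genotype was measured in 3 pools of liver RNA, with 1 Affymetrix MG-430 PM array per pool. How many mice made a pool, their sex and the construction of the knockout allele are unstated here, so p-values describe the spread between pools. Values are log2 RMA signals, where a difference of 1 is a doubling. Signals of different probe sets are not on a common scale, so levels are compared between arrays and not between genes.

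P450 enzymes of these families sit in the endoplasmic reticulum, bind haem and receive electrons from cytochrome P450 reductase. Their genes lie in clusters of close relatives, and their transcription follows sensors of foreign compounds: CAR (Nr1i3) acts chiefly on Cyp2b and Cyp2c genes, PXR (Nr1i2) on Cyp3a genes and the aryl hydrocarbon receptor (Ahr) on Cyp1 genes. Many also differ between male and female mice through the pattern of growth hormone release. Most of the abundant members are made by hepatocytes, many of them around the central vein, while Cyp2f2 is made around the portal vein.

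The targeted gene matched the labels. Nrg4 read 4.94, 4.79 and 4.77 in wild type against 2.56, 2.43 and 2.64 in the knockout, and it was lower in the knockout by limma's test (adjusted p = 4.76e-05). In all 6 arrays, Y-linked Eif2s3y read 7.16 to 7.46 and Xist 3.30 to 3.99. Hepatocyte markers were present at mean levels of 10.93 to 11.04. Over all genes tested, 5 of 12466 passed at adjusted p under 0.05.

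No P450 gene of these families passed the test. Of 29 tested, 0 had a limma adjusted p under 0.05, against 0.0401% of all genes tested (0.016% higher and 0.0241% lower in the knockout). An unadjusted p under 0.05 was reached by 3 members, against 9.55% of all genes: Cyp2b9 and Cyp2b10 with higher values, against 7.36%, and Cyp2j9 with a lower value, against 2.18%. The smallest adjusted p was 0.29, for Cyp2b9, a Cyp2b enzyme that female mouse liver makes far more of than male liver. Even so, its difference was the largest in size of all 12466 genes: the knockout mean was 5.98-fold over the wild-type mean. It was the 1 member at least 1.5-fold apart, against 0.914% of all genes. Cyp2b10, Cyp2b9 and Cyp3a11 were higher in every knockout array than in any wild-type array, and Cyp2d10 was lower. These 4 of 29 without overlap, 13.8%, stand beside 15.6% of all genes tested, 11.7% higher and 3.92% lower. In the knockout, 15 members had higher and 14 lower values; their median log2 change was 0.003, while 63.4% of all genes were higher, with a median of 0.04. In size, 27 of 29 log2 changes were under 0.3, as were 92.5% over all genes. For 23 of 29 members the 95% interval lay within 1.5-fold in either direction. The share over all genes was not counted, so this cannot be called particular to these genes.

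**Figure D1:**
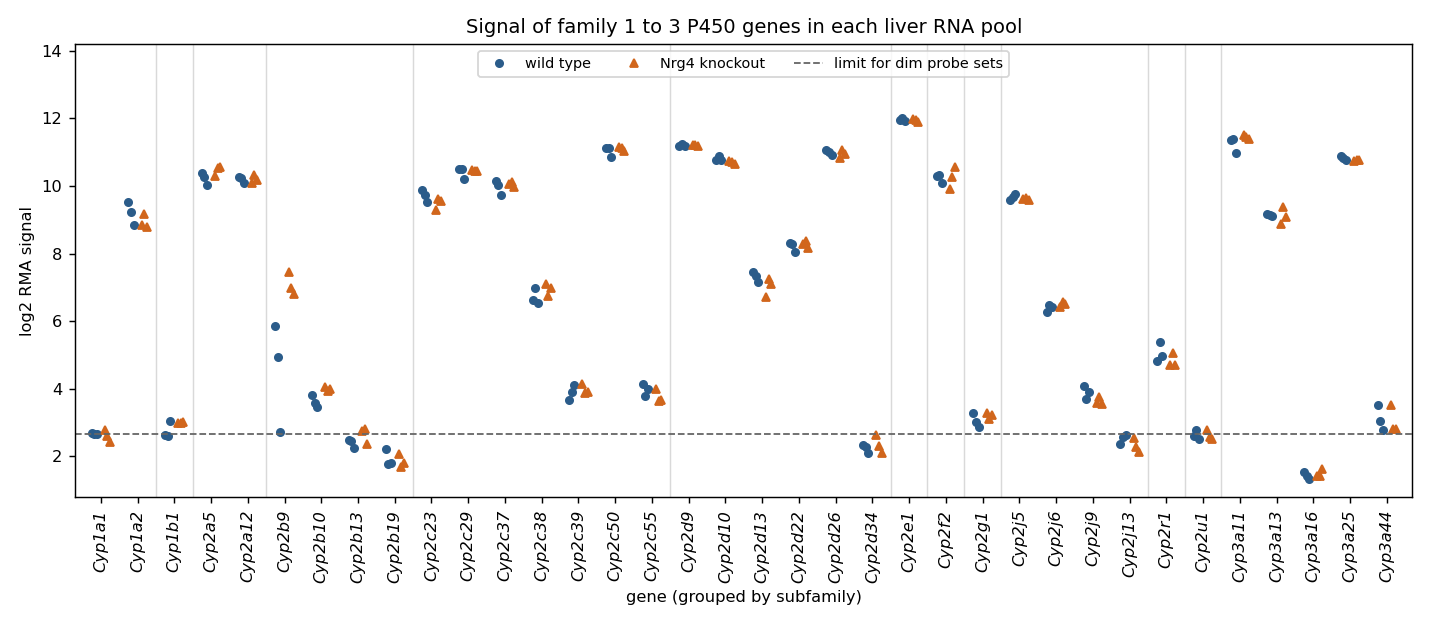
Log2 RMA signal (vertical axis) of the 36 P450 genes (horizontal axis, grouped by subfamily) in 3 wild-type arrays (circles) and 3 Nrg4 knockout arrays (triangles), with the limit for dim probe sets at 2.66 as a dashed line. Circles and triangles of most genes lie close together, while Cyp2b9 runs from 2.71 to 5.85 in wild type and from 6.81 to 7.45 in the knockout.

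**Figure D2:**
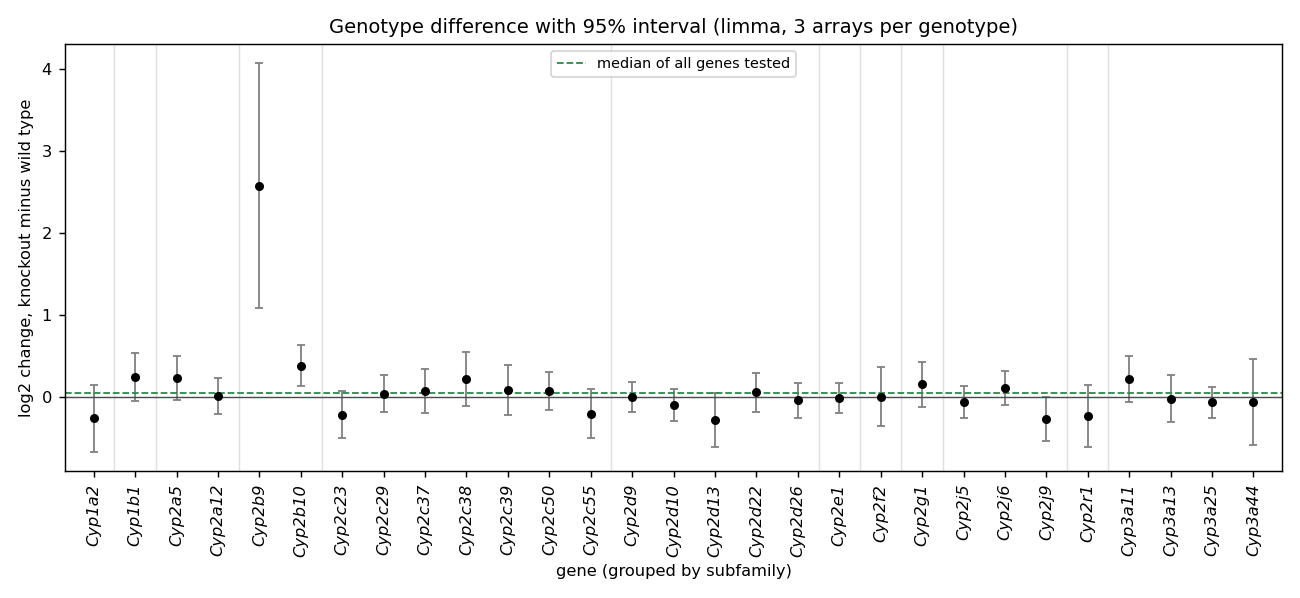
Log2 change (knockout minus wild type, vertical axis) of the 29 tested P450 genes with limma's 95% interval, 3 arrays per genotype; the dashed line is the median of all genes tested, 0.04. Cyp2b9 stands at 2.58 with an interval from 1.09 to 4.07, and the other 28 genes lie between -0.28 and 0.38.

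The Cyp2b genes held the largest differences. Their enzymes hydroxylate steroids and many drugs; Cyp2b10 is the classical gene induced by phenobarbital through CAR, and Cyp2b9 and Cyp2b13 are close relatives that are female-predominant in mouse liver. Cyp2b9 read 5.85, 4.94 and 2.71 in wild-type replicates 1, 2 and 3, and 7.45, 6.98 and 6.81 in the knockout. The genotypes did not overlap, but wild-type replicate 3 lay near the limit for dim signal and more than 2 log2 units under the other wild-type arrays. The means were 4.50 ± 1.61 and 7.08 ± 0.33 (SD, n = 3), a log2 change of 2.58 (SE 0.65, limma adjusted p = 0.29, unadjusted p = 0.00377). Without wild-type replicate 3 the change was 1.69, or 3.22-fold (limma adjusted p = 0.195), and it then ranked 4 in size among all genes tested. Over all 15 refits the change of Cyp2b9 lay between 1.69 and 3.25 and the adjusted p between 0.125 and 0.667. With 3 arrays on each side, 0.1 is the smallest p that exact permutation can reach for a single gene. In bulk liver, fewer cells making a transcript and less of it per cell cannot be told apart.

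Cyp2b10 read 3.81, 3.58 and 3.45 in wild type and 4.04, 3.94 and 4.01 in the knockout. All knockout arrays lay above all wild-type arrays, by a narrow margin over wild-type replicate 1. The log2 change was 0.38 (SE 0.11, 1.30-fold, limma adjusted p = 0.336). It was smaller without wild-type replicate 3, at 0.30. The other probe sets of Cyp2b10 were dim and disagreed, with log2 changes of 0.35 and -0.03. Cyp2b13 was dim in wild type, at 2.48, 2.47 and 2.24, and read 2.75, 2.82 and 2.37 in the knockout. Knockout replicates 1 and 2 lay above the wild-type arrays and knockout replicate 3 among them. Cyp2b19, known from skin keratinocytes, was dim in every array, between 1.69 and 2.23.

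**Figure D3:**
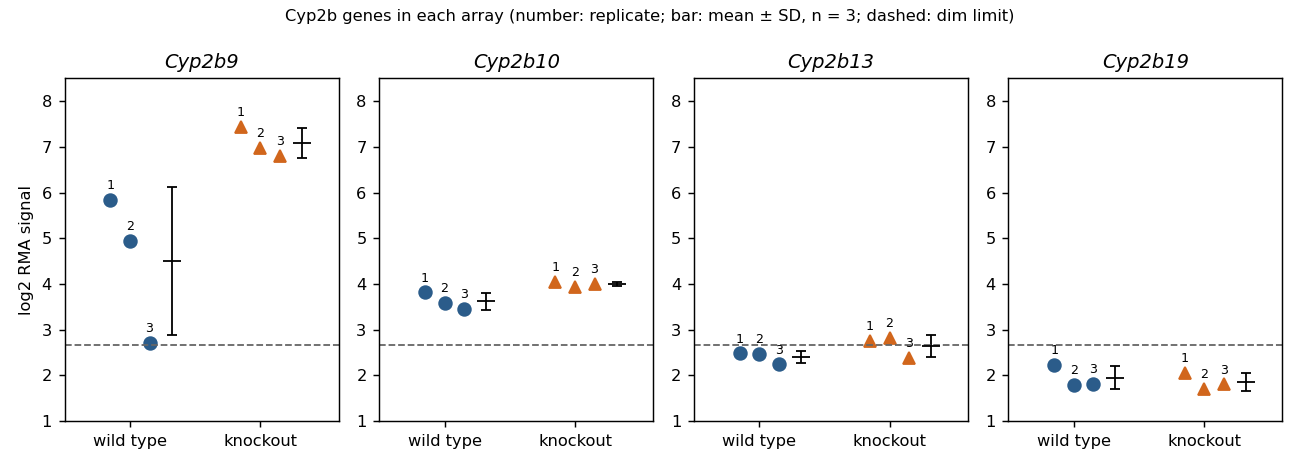
Log2 RMA signal (vertical axis) of the 4 Cyp2b genes in each wild-type (circle) and knockout (triangle) array, numbered by replicate, with the mean ± SD (n = 3) beside them and the limit for dim probe sets, 2.66, as a dashed line. Wild-type replicate 3 of Cyp2b9, at 2.71, stands apart from the other wild-type arrays, and Cyp2b13 and Cyp2b19 lie near or under the limit.

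The promoters of 3 Cyp2b genes are shown because Cyp2b9 and Cyp2b10 held the largest changes among the members, and Cyp2b13 is a close relative of Cyp2b9. The letters are the 250 bases before the annotated start, from RefSeq on GRCm38.p6, plus strand, 5′ to 3′. Capitals mark AGGTCA, a hexamer that many nuclear receptors bind. The windows are chr7:26173159-26173408 for Cyp2b9, chr7:26061245-26061494 for Cyp2b13 and chr7:25897408-25897657 for Cyp2b10.
Cyp2b9: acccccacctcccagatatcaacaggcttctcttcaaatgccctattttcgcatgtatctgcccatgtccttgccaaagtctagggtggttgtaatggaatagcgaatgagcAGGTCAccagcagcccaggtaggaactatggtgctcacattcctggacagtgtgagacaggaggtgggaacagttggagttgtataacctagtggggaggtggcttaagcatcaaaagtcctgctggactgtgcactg
Cyp2b13: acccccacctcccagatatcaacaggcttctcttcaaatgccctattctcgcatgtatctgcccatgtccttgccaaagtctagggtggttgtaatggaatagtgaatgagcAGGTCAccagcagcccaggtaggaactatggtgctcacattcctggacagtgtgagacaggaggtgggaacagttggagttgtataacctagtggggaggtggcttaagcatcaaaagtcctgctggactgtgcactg
Cyp2b10: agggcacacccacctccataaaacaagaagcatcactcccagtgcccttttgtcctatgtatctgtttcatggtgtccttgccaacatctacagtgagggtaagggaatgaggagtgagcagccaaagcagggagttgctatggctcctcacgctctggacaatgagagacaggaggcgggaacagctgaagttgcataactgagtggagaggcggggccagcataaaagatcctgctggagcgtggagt
The windows of Cyp2b9 and Cyp2b13 were the same at 248 of 250 bases. They differed by T48C and C104T, with the Cyp2b9 base before and the Cyp2b13 base after the position, counted from 1 at the 5′ end of the printed window. Both hold AGGTCA at position 113. Cyp2b10 was 70.0% identical to Cyp2b9 in a global alignment and had no AGGTCA on either strand. Of the 36 genes, 30 matched a RefSeq promoter, and 10 of them had AGGTCA on either strand in these 250 bases, against 14.0% of 32851 promoter windows of that length. The TATA box letters TATAAA were found in 15 of the 30, against 12.4% of windows. GCGTG, the core to which the aryl hydrocarbon receptor binds, was found in 5, against 28.2%, and TTCNNNGAA, the element bound by STAT5 factors downstream of growth hormone, in 0 of 30, against 7.0%. Members were counted per gene and the background per window. Close relatives with nearly the same window, such as Cyp2b9 and Cyp2b13, were counted separately. No excess or lack of a motif was tested. A match is only the presence of these letters, and the well-known CAR-responsive enhancer of Cyp2b10 lies outside the window.

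The Cyp3a genes stayed close between genotypes. They encode the enzymes that handle the widest range of drugs and also hydroxylate steroids and bile acids, and Cyp3a11 is the standard target of PXR in mouse liver. Cyp3a11 read 11.37, 11.38 and 10.96 in wild type and 11.51, 11.46 and 11.40 in the knockout. The genotypes did not overlap, although wild-type replicates 1 and 2 lay just under the lowest knockout array and wild-type replicate 3 well below. The log2 change was 0.22 (SE 0.12, limma adjusted p = 0.606), and without wild-type replicate 3 it was 0.08 (limma adjusted p = 0.881). Over all 15 refits this adjusted p lay between 0.512 and 0.919. Cyp3a25 read 10.90, 10.82 and 10.78 in wild type against 10.74, 10.76 and 10.78, a log2 change of -0.07 with a 95% interval of -0.26 to 0.12. Cyp3a13, which is also made in the intestine, stood at a log2 change of -0.02, with wild-type arrays between 9.11 and 9.17 and knockout arrays between 8.88 and 9.38. Cyp3a44, female-predominant like Cyp2b9, read 3.51, 3.04 and 2.78 in wild type and 3.52, 2.81 and 2.81 in the knockout. Its genotypes covered nearly the same range, and its log2 change was -0.06 (95% interval -0.59 to 0.46). Cyp3a16, a gene of fetal liver, was dim, between 1.34 and 1.64.

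The 7 Cyp2c genes described here were all tested, and 5 had a higher and 2 a lower value in the knockout, with log2 changes from -0.22 to 0.22. This subfamily includes epoxygenases of arachidonic acid and several CAR targets. Cyp2c29, a CAR target, read 10.50, 10.50 and 10.22 in wild type and 10.46, 10.45 and 10.43 in the knockout. Wild-type replicate 3 was the low array and the others were level, which gave a log2 change of 0.04 (95% interval -0.19 to 0.27). Cyp2c50 had the same shape, at 11.11, 11.13 and 10.84 in wild type and 11.15, 11.13 and 11.03 in the knockout. Cyp2c37 likewise read lowest in wild-type replicate 3, at 9.74 against 9.97 to 10.15 elsewhere. Cyp2c39, a retinoic acid hydroxylase, ran the other way, with 3.66, 3.90 and 4.12 in wild type and 4.15, 3.87 and 3.90 in the knockout. Cyp2c23, an epoxygenase formerly named Cyp2c44, had the smallest p of the subfamily, with 9.88, 9.73 and 9.52 in wild type and 9.30, 9.63 and 9.55 in the knockout. Its arrays overlapped, and its log2 change was -0.22 (SE 0.12, limma adjusted p = 0.606), or -0.13 without wild-type replicate 1 and -0.12 without knockout replicate 1. Cyp2c38 stood at 0.22 and Cyp2c55, better known from the colon, at -0.21.

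Cyp2a, Cyp2d, Cyp2e, Cyp2f and Cyp2g genes gave small differences. Cyp2a5, the coumarin hydroxylase that also oxidises nicotine, read 10.40, 10.26 and 10.04 in wild type and 10.29, 10.54 and 10.56 in the knockout. The first knockout pool fell within the wild-type range, and the log2 change was 0.23 (SE 0.12, limma adjusted p = 0.583), or 0.13 without wild-type replicate 3. The name of its probe set marks probes shared between transcripts, as for Cyp2c23, so signal from a close relative cannot be told apart. Cyp2a12 stood at 0.01. Cyp2d9, a male-predominant steroid hydroxylase, had the smallest difference in size: 11.18, 11.24 and 11.17 in wild type and 11.20, 11.21 and 11.18 in the knockout, with a 95% interval of -0.18 to 0.18. Cyp2d10 read 10.77, 10.89 and 10.77 in wild type and 10.75, 10.72 and 10.66 in the knockout. The knockout arrays were all lower, and the log2 change was -0.10 (SE 0.08, limma adjusted p = 0.744), or -0.058 without wild-type replicate 2. Cyp2d13 stood lowest among the members, at -0.28, with 7.44, 7.33 and 7.15 in wild type and 6.73, 7.25 and 7.09 in the knockout (SE 0.14, limma adjusted p = 0.57). Its arrays overlapped, knockout replicate 1 was the low array, and without it the change was -0.13. Cyp2d22 had probe sets at 0.06 and 0.17, and Cyp2d26 stood at -0.04. Cyp2d34 was dim, between 2.09 and 2.64.

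Cyp2e1, which oxidises ethanol, acetone and paracetamol around the central vein, read 11.96, 12.01 and 11.91 in wild type and 11.98, 11.95 and 11.90 in the knockout. The arrays were level, with a log2 change of -0.02 (95% interval -0.20 to 0.17). Cyp2f2, which activates naphthalene and marks periportal hepatocytes, had a log2 change of 0.003 and spread out in the knockout: 9.90, 10.26 and 10.55, against 10.28, 10.32 and 10.10 in wild type. Its knockout SD of 0.33 stood at the 94.6th percentile of all genes tested. A list of 6 tested periportal markers that does not include Cyp2f2 had knockout list means of -0.20, 0.14 and 0.26 relative to each gene's mean, in the same order of arrays. A low knockout replicate 1 was not particular to periportal genes. Macrophage markers had knockout list means of -0.22, 0.35 and 0.47. Hepatocyte, central vein, endothelial and stellate lists were also lowest of the knockout arrays there, while cholangiocyte, lymphocyte and adipocyte lists were not. The cause was not tested. Cyp2g1, an olfactory enzyme, read 3.27, 3.02 and 2.86 in wild type and 3.29, 3.10 and 3.23 in the knockout, a log2 change of 0.15 (limma adjusted p = 0.716), which was 0.057 without wild-type replicate 3 and 0.26 without wild-type replicate 1.

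Family 1 was represented by a single tested hepatic gene and 1 tested stromal gene. Cyp1a2, which metabolises caffeine, read 9.52, 9.25 and 8.83 in wild type and 8.84, 9.18 and 8.79 in the knockout. The genotypes overlapped, with only wild-type replicates 1 and 2 above every knockout array, and the log2 change was -0.26 (SE 0.18, limma adjusted p = 0.669). Without wild-type replicate 3 the change was -0.45 and without wild-type replicate 1 it was -0.10; the limma adjusted p lay between 0.405 and 0.962 over all refits. Cyp1a1, which the aryl hydrocarbon receptor induces strongly on exposure, was dim, at 2.69, 2.66 and 2.66 in wild type and 2.79, 2.60 and 2.44 in the knockout. Cyp1a1 and Cyp1a2 lie within 10 Mb of Nrg4, where a knockout can keep flanking sequence of another strain, so genotype and flanking sequence cannot be told apart for these genes. Cyp1b1, made mainly outside hepatocytes, read 2.63, 2.60 and 3.06 in wild type and 2.99, 2.99 and 3.02 in the knockout. Wild-type replicate 3 lay with the knockout arrays, the change was 0.24 (limma adjusted p = 0.584), and without that array it was 0.39 (limma adjusted p = 0.367, range over refits 0.232 to 0.926). Without wild-type replicate 2 it was 0.16. Its other 2 probe sets were dim, with changes of 0.004 and -0.01.

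The Cyp2j genes encode epoxygenases of arachidonic acid. Cyp2j9 was the only member besides Cyp2b9 and Cyp2b10 with an unadjusted limma p under 0.05, at 0.0484. It read 4.08, 3.69 and 3.91 in wild type and 3.57, 3.75 and 3.54 in the knockout, a log2 change of -0.27 (SE 0.12, limma adjusted p = 0.52). Knockout replicate 2 lay above wild-type replicate 2, so the genotypes overlapped, and without wild-type replicate 1 the change was -0.18. Cyp2j5 read 9.58, 9.68 and 9.77 in wild type and 9.61, 9.65 and 9.59 in the knockout, and its probe sets gave -0.06 and -0.07. The probe sets of Cyp2j6 stood at 0.11 and 0.22, and Cyp2j13 was dim. Cyp2r1, a vitamin D hydroxylase, read 4.82, 5.39 and 4.97 in wild type and 4.72, 5.07 and 4.69 in the knockout. Its high array was wild-type replicate 2, and its change was -0.23 (SE 0.16, limma adjusted p = 0.679), or -0.068 without that array, -0.36 without wild-type replicate 1 and -0.36 without knockout replicate 2. Cyp2u1, a fatty acid hydroxylase, was dim, between 2.53 and 2.78.

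The wild-type arrays spread more for these genes than for the array as a whole. The median SD over the wild-type arrays was 0.18 for the 29 members and 0.11 for all genes tested, while over the knockout arrays it was 0.11 and 0.13. Of the 29 members, 22 had a larger SD in wild type than in the knockout, against 41.7% of all genes. Without wild-type replicate 3, 15 of 29 members had the larger SD in wild type, against 32.4% of all genes, and the median SD was 0.0808 against 0.0783. The members with the widest wild-type range were Cyp2b9 at 3.13, Cyp3a44 at 0.73, Cyp1a2 at 0.69, Cyp2r1 at 0.58 and Cyp2c39 at 0.46. The range of Cyp2b9 ranked 6 among all 12466 genes. At the other end, Cyp3a13 had a wild-type range of 0.06, Cyp2d9 of 0.08 and Cyp2e1 of 0.09.

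**Figure D4:**
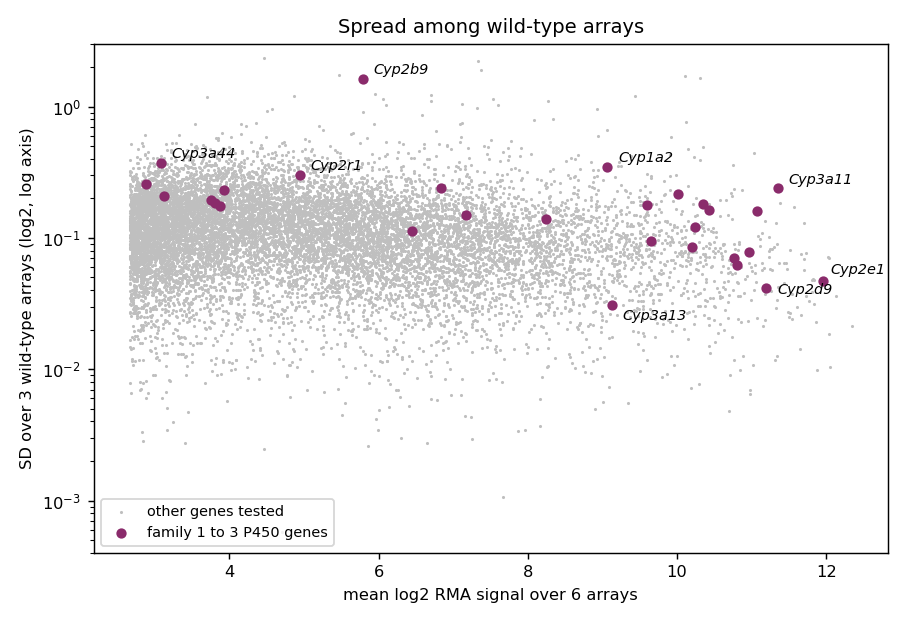
SD over the 3 wild-type arrays (vertical axis, log scale) against the mean log2 RMA signal over 6 arrays (horizontal axis) for all genes tested (grey) and the 29 P450 genes (purple). Cyp2b9 has an SD of 1.61, near the top of all genes, while Cyp3a13, Cyp2d9 and Cyp2e1 lie at 0.03, 0.04 and 0.05.

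Wild-type replicate 3 was the lowest of the wild-type arrays for 21 of 29 members, 72.4%, against 41.7% of all genes tested, a count chosen after the values were seen. It was the lowest of all 6 arrays for 12 members, 41.4%, against 24.5% of all genes. Among these 12 were Cyp2b9, Cyp2b10, Cyp3a11, Cyp2c29 and Cyp2c50. The median deviation of the members in that array from each gene's mean was -0.08, and -0.04 over all genes. Over the 17 members with a mean signal of at least 8 it was -0.10, against -0.04 over 1378 such genes. Cyp1b1, Cyp2c39 and Cyp2j5 instead read highest of the wild-type arrays there. Without this array, 10 of 29 members did not overlap between genotypes, against 25.7% of all genes. Its part in the Cyp2b9 difference shows in the value without it, 1.69 against 2.58.

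**Figure D5:**
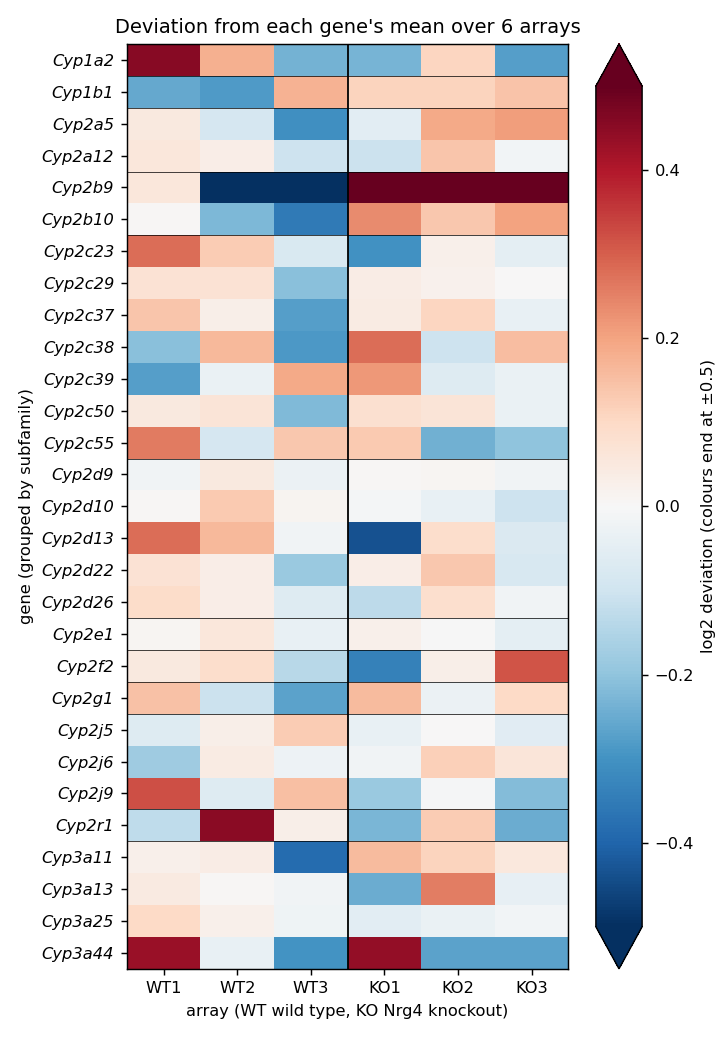
Deviation of each of the 29 tested P450 genes (rows, grouped by subfamily) from its mean over the 6 arrays (columns; WT wild type, KO knockout), on a log2 colour scale that ends at ±0.5. Wild-type replicate 3 is blue for most rows, and Cyp2b9 runs past the scale in 5 arrays.

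The genes that regulate, supply or accompany these enzymes were read from fixed lists, and none passed limma's test over all genes. At an unadjusted p under 0.05, each list named here held 1 to 3 genes, except the Ahr targets, with 0; over all genes 9.55% reached that p. Of receptors and transcription factors, 12 of 17 tested had higher knockout values (median log2 change 0.05), against 63.4% of all genes (median 0.04). CAR, Nr1i3, stood at 0.11, PXR, Nr1i2, at 0.03 and Ahr at -0.06, with limma adjusted p-values of 0.777, 0.932 and 0.886. Nr1i3 was lowest in wild-type replicate 3, at 8.36, and so was Nr1i2, at 6.47 against 6.59 to 6.66. That array was also the lowest for 24.5% of all genes tested. Ahr instead read highest of the wild-type arrays there, at 7.65. The mean of the whole list was -0.07 in wild-type replicate 3 and -0.09 in knockout replicate 1. Ppara, the fatty acid receptor, stood at 0.34 (limma adjusted p = 0.379), Tbx3 at -0.21 and Arnt, the partner of Ahr, at 0.14.

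CAR and PXR targets outside the P450 genes had 11 of 16 higher values and a median of 0.09. Over all genes tested, 63.4% were higher, with a median of 0.04. Slco1a4, an organic anion transporter that PXR induces, read 7.57, 7.18 and 5.73 in wild type and 7.90, 7.69 and 7.84 in the knockout. It thus had wild-type replicate 3 as its low array, as Cyp2b9 did, and no overlap between genotypes; its log2 change was 0.98 (SE 0.39, limma adjusted p = 0.488). The list mean, which includes Slco1a4, was 0.09, -0.0008 and -0.27 in wild-type replicates 1, 2 and 3. In the knockout it was 0.04, 0.04 and 0.10. Abcc2, an export pump, stood at -0.30 and Abcb1a at 0.35. Targets of Ahr gave 2 higher and 2 lower values of 4 tested, with Nqo1 at 0.21, Ugdh at 0.07 and Tiparp at -0.02.

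Electron transfer and haem supply genes gave 5 higher and 5 lower values of 10 tested, with a median of 0.02. Hmox1, which breaks down haem and is abundant in macrophages, read 4.53, 4.89 and 4.87 in wild type and 4.89, 6.07 and 6.06 in the knockout, a log2 change of 0.90 (limma adjusted p = 0.386). Cyb5r3 stood at 0.17 and Blvra at 0.13, and the reductase gene Por was not analysed here. Flavin monooxygenases and conjugating enzymes gave 8 higher and 6 lower of 14, with Ugt3a1 at -0.38, Nat2 at 0.34 and Tpmt at 0.25. The other P450 families gave 12 higher and 9 lower of 21 and a median of 0.04, with Cyp4a31 at -0.96 (limma adjusted p = 0.274), Cyp39a1 at 0.54 and Cyp4b1 at 0.24.

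Since Cyp2b9 is female-predominant, genes of either sex bias outside the P450 families were set beside it. Female-biased genes gave 2 higher and 3 lower of 5 tested, with Acot3 at -0.65, Atp6v0d2 at 0.45 and Cabyr at 0.23. Male-biased genes gave 5 higher and 9 lower of 14, with Slco1a1 at -0.50, Hsd3b5 at -0.41 and Scara5 at 1.14. Wild-type replicate 3 of Scara5, at 6.28, lay among its knockout arrays, at 6.04 to 6.60. The male-biased list means were -0.27, 0.04 and 0.34 in wild-type replicates 1, 2 and 3, and -0.11, -0.05 and 0.06 in the knockout. The female-biased list means, over only 5 genes, were -0.09, 0.13 and 0.05 in wild type and -0.02, 0.01 and -0.08 in the knockout. None of these genes passed, with limma adjusted p-values of at least 0.145, and the part of sex-dependent regulation in the Cyp2b9 values was not tested.

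Markers of other liver cell types mostly had higher knockout values on the same arrays, where 63.4% of all genes tested were higher. None passed limma's test, while at an unadjusted p under 0.05 there were 6 macrophage, 4 endothelial and 5 stellate or matrix markers, all higher, against 7.36% of all genes. Of these, Timd4 lay under the dim limit on average in wild type and was tested through its higher knockout arrays. Macrophage markers had higher values in 15 of 15 tested, with mean levels of 5.94 to 6.13 in wild type and 6.01 to 6.70 in the knockout. Knockout replicate 1, at 6.01, lay under wild-type replicates 1 and 3, at 6.13 and 6.04. Endothelial markers were higher in 10 of 12, with means of 5.06 to 5.38 and 5.39 to 5.72, and stellate and matrix markers in 10 of 11, with means of 5.16 to 5.28 and 5.40 to 5.58. Hepatocyte markers split 5 and 5 with a median of -0.01, and central vein markers other than P450 genes 4 and 6 with a median of -0.04. Cholangiocyte markers were higher in 2 of 2 tested, lymphocyte markers in 6 of 8, adipocyte markers in 1 of 2 and periportal markers in 5 of 6. A sign of RNA quality, the mean difference between 5′ and 3′ control probe sets for Actb and Gapdh (5′ minus 3′), was -1.31 in knockout replicate 1 and between -0.96 and -0.65 in the other arrays. For 18S ribosomal RNA, control probe sets read 7.45 to 8.80 in wild type and 5.61 to 6.89 in the knockout. The part of these in the P450 values was not tested.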

How the data were processed

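Liver RNA was measured on 6 arrays, 3 per genotype, from 250 ng of total RNA each, per the labels. The deposited values are log2 RMA signals made by the authors; affy, RMA and limma are named in the submitters' processing notes without versions, and no genome build was named for the values. RMA equalises the arrays by quantiles, so a shift of most genes would be reduced, and array medians were 2.98 to 3.04. Genes were named through the platform annotation, with symbols updated by gene number from RefSeq GRCm38.p6. Of 45141 probe sets, 28898 had 1 symbol; those with several or none were left out. A gene that also matched the name rule is not reported here.

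The genotype contrast was fitted in R 4.3.3 by limma 3.58.1 (lmFit, eBayes; two-sided) over all 12466 genes above the dim limit, with Benjamini-Hochberg adjustment and a threshold of 0.05. The number of arrays limits the precision. The test was checked on simulated data. Values in every array are given for 20 members: Cyp2b9, Cyp2b10, Cyp2c29, Cyp3a11 and Cyp1a2, in each subfamily those of highest mean and of smallest p, the 5 with the largest change, the 5 with the widest wild-type range, and those without overlap. Others were named after their values were seen. For each fixed list the 3 genes of smallest p and the receptors are named. The P450 genes, the lists and the tests were chosen with earlier results of these data known. Figures used matplotlib 3.10.9.

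Alternatives changed the scaling (a further quantile normalization, or median centring), the dim limit (none, or the 60th percentile), limma's prior (trended or robust), the array weighting, and the probe sets (averaged per gene, or each on its own); others were looser thresholds, leaving out each array, and the replicate number as a block. Same-numbered arrays gave correlations of deviations from the group means of -0.15, 0.03 and -0.01. Differently numbered arrays gave values between -0.17 and 0.16. With 3 arrays per genotype this cannot tell whether the numbers pair the pools, and the main fit did not pair them.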

Additional observations from a re-analysis of the deposited data

How the results depend on the processing

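No P450 gene passed in any of the 15 refits or with every probe set on its own. At an unadjusted limma p under 0.05, 3 members did in the main fit, against 9.55% of all genes. Over the refits this count lay between 2, as with the replicate block, and 5, without wild-type replicate 3. The median change of the members lay between -0.04 and 0.03 over the refits that leave out an array and between -0.01 and 0.02 over the others. Over all genes, the limma count of 5 became 8 with quantile normalization again, 3 with the filter at the 60th percentile or the mean of all probe sets, 29 with a variance trend, 50 with array weights, 30 at adjusted p under 0.10 and 1190 at an unadjusted p under 0.05; without each array it lay between 1 (without wild-type replicate 2 or knockout replicate 3) and 17 (without knockout replicate 1). With the replicate number as a block it was 2, the members' count stayed 0, and the lowest member adjusted p by limma was 0.21. The median SD over wild-type arrays lay between 0.0808 and 0.183 with each of these arrays left out, an alternative added after seeing the data.

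Of 20 named members, 13 kept their direction in every refit that included them (13 refits for Cyp1b1, 14 for Cyp2b10 and Cyp2g1, 15 for the others); the rest had changes near 0, and the cause was not tested. Turned values were 0.0070 for Cyp2d9 and -0.027 for Cyp2f2 with quantile normalization again, -0.011 for Cyp2f2 with centring and -0.0064 for Cyp2c29 with array weights. With an array left out, Cyp2c29 ranged from -0.054 to 0.087, Cyp2c39 from -0.037 to 0.19, Cyp2c50 from -0.020 to 0.12, Cyp2d9 from -0.014 to 0.023, Cyp2e1 from -0.040 to 0.0071, Cyp2f2 from -0.15 to 0.17 and Cyp3a44 from -0.30 to 0.14. Dim members, such as Cyp1a1 and Cyp2b13, set no bound on a difference.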
